A study of Mus musculus with 7 samples.

Results

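The cytosolic ribosomal protein genes were examined in bulk RNA-seq of CD4 T cells sorted from mouse lung tumours. Members were all protein-coding genes of the count table whose symbol is Rpl or Rps with a number, optionally followed by a, x or l and further digits. Rplp0, Rplp1, Rplp2 and Rpsa were members too. The rule found 83 of the 55364 genes, 32 of the small subunit and 51 of the large subunit. The libraries come from CD45+CD3+CD4+ cells sorted from orthotopic lung tumours of C57BL/6 mice older than 8 weeks. Control mice were I-AbF/F (5 libraries) and Cre mice were I-AbF/FCol1a2-cre (2 libraries). Both groups carried the floxed I-Ab allele, which encodes a chain of MHC class II, and both received tamoxifen. The Cre transgene is driven by the promoter of Col1a2, a fibroblast collagen gene, so the sorted T cells are not the cells in which it is expected to act. The series calls the libraries biological replicates.

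A ribosome joins a small subunit, which reads the mRNA, to a large subunit, which forms the peptide bond, and every subunit needs its full set of proteins. The mRNAs of these proteins are among the most abundant in growing cells and carry a pyrimidine tract at their first bases (the 5′ TOP motif), through which the mTOR pathway controls their translation. T cells build many ribosomes after activation, and some ribosomal proteins have paralogs whose use differs between tissues.

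The Control libraries held between 1484655 and 1724346 counts, Cre 1 held 1929899 and Cre 2 held 1449739, and levels are given as CPM, a gene's counts relative to all counts of its library. At an equal depth of 1449739 counts, 9983 to 14603 genes were detected in Control and 8759 and 7896 in Cre, so the Cre libraries held fewer genes than every Control library. Of the 10 T cell markers, all were tested and none passed edgeR at an adjusted p under 0.05, beside 0.0% higher and 0.0101% lower of all tested genes. Their summed level was between 4739 and 5836 CPM in the Control libraries, with 6142 CPM in Cre 1 and 4088 CPM in Cre 2. In Cre 1 all 10 were inside the Control range. In Cre 2, Cd3e (2.07 CPM), Cd3g, Cd2, Lck and Cd28 were below every Control library. Cd3d, Cd4, Cd5, Trac and Trbc2 were inside the Control range there. Summed fibroblast markers stood at between 159.6 and 575.0 CPM in the 5 Control libraries against 275.7 and 53.1 CPM in Cre 1 and 2, and summed macrophage and monocyte markers at 13.9 to 45.8 CPM against 1.04 and 4.14 CPM. Among the 8 macrophage and monocyte markers, Adgre1 and C1qc were at 0 in all 7 libraries. The part of gene detection and of these markers in the results below was not tested.

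The sequences around the annotated starts of members discussed below are shown for their pyrimidine runs, long and short. They are from RefSeq (GRCm38.p6) and read 5′ to 3′ on the gene's strand, and capitals mark a longest run of C and T in the window from 60 bases before to 30 bases after the annotated start (in Rps27l, 1 of 2 runs of equal length). Where RefSeq gives 2 starts (Rps24, Rpl22 and Rps27l), the one with the longer run is shown.
Rps24: gagcggTCCTCTTTTCCTCCTCTCCagctc
Rps25: ccaccgggCTTCCTTTTTTTCCgacatctt
Rpl39: cgagtcatccaTCCCCCCCTaagctccgcc
Rpl13a: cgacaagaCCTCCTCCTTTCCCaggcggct
Rpl22: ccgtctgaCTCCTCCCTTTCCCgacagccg
Rpl22l1: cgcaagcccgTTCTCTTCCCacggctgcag
Rps27: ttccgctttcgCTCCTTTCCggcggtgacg
Rps27l: actcctctccaCTCCTCCCCgccgcctcta
Rps15: ggtggaggcgggCCCTCCCggcagagctcg
Rps2: cgagatctcgcgCTTCTTggagcactataa
The stretches on the plus strand are chr14:24490710-24490739 (Rps24), chr9:44407684-44407713 (Rps25), chr4:152325679-152325708 (Rpl22), chr3:28805499-28805528 (Rpl22l1), chr9:66946063-66946092 (Rps27l), chr10:80292400-80292429 (Rps15) and chr17:24720055-24720084 (Rps2). Those on the minus strand are chrX:37085225-37085254 (Rpl39), chr7:45128722-45128751 (Rpl13a) and chr3:90213632-90213661 (Rps27). The run of Rps24, 19 bases, was the longest of those shown and begins 37 bases before the RefSeq start. Exon 1 of the GENCODE M21 transcripts Rps24-202 and Rps24-210 begins at base 24490718, within that run. The run of Rpl13a begins at base 3 of the transcript. The paralogs Rpl22l1 and Rps27l hold runs of 10 and 9, beside 14 in Rpl22 and 9 in Rps27, and the shortest shown are 7 in Rps15 and 6 in Rps2. RefSeq had an entry for 63 of the 83 members, and 33 of them (52.4%) held a run of at least 10 such bases in that window, 11 of 24 small and 22 of 39 large subunit genes, against 19.2% of the 27025 genes in the table. The motif CCGGAAGT, bound by ETS factors such as GABPA and searched on both strands of the 300-base entries, can overlap a pyrimidine run on its other strand. It was present in 12 members (19.0%) and in 4.31% of all genes. A match describes these letters and no binding.

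Together the members took up 14.3, 11.5, 11.8, 12.2 and 9.998% of all counts in Control 1 to 5, and 13.9 and 13.5% in Cre 1 and 2. Both Cre libraries lay above Control 2 to 5 and below Control 1. Small subunit genes summed to 66207, 58537, 56482, 57167 and 52685 CPM in Control (58216 ± 4966, SD, n = 5) and to 72511 and 61810 CPM in Cre. Cre 1 was above every Control library, while Cre 2 was below Control 1. Large subunit genes summed to 76368, 56859, 61266, 64917 and 47298 CPM in Control (61341 ± 10676, SD, n = 5) and to 66455 and 72717 CPM in Cre, and both Cre libraries fell inside the Control range. In bulk libraries, more cells of a type and more RNA per cell cannot be told apart.

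**Figure D1:**
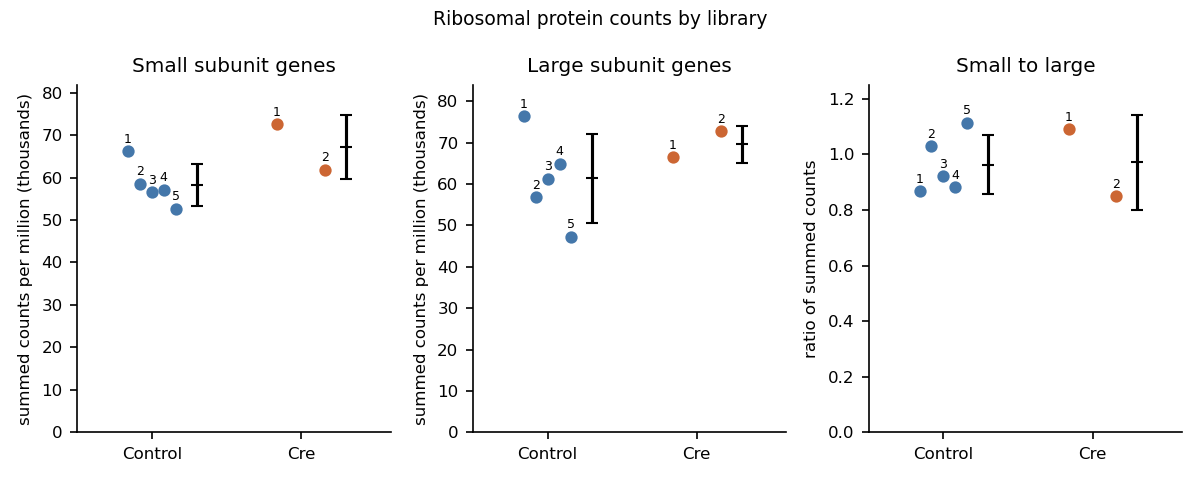
Summed CPM of the small (left) and large (middle) subunit genes and the ratio of the small to the large sum (right) in each of the 5 Control and 2 Cre libraries, numbered by replicate, with the mean and SD of each group in black. The groups overlap in all 3 panels, and Control 1 has the highest large subunit sum, at 76368 CPM.

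The ratio of small to large subunit counts, which does not depend on the library total, was 0.867, 1.03, 0.922, 0.881 and 1.11 in Control and 1.09 and 0.850 in Cre. Control averaged 0.963 ± 0.106 (SD, n = 5), Cre 1 was below Control 5 only, and Cre 2 was just below every Control library. Without Rps24 the small subunit sum was 52282 ± 5417 CPM in Control (SD, n = 5) against 56797 and 51978 CPM in Cre 1 and 2, and the difference of the group means went from 8945 to 2105 CPM. The large subunit difference was 8245 CPM and became 2538 CPM when regions shared with another gene were left out. Control 1 was the highest Control library for 10 of 32 small and 19 of 48 tested large subunit genes, and Control 5 was the lowest of all 7 libraries for 14 large subunit genes.

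Of the 83 members, 80 passed the filter on low counts, and Rpl3l, Rpl10l and Rpl39l had 0 counts in all 7 libraries. No member passed edgeR's quasi-likelihood test at an adjusted p under 0.05, where 0.0% of 9854 tested genes were called higher and 0.0101% lower in Cre. At an unadjusted p under 0.05, 2 small subunit genes (Rps24 and Rps25) and 1 large subunit gene (Rpl39) were higher in Cre, against 1.41% of all tested genes. None of the 80 was lower at that level, against 10.2% of all tested genes. Most members are abundant, and of the 557 tested genes with a mean of 300 CPM or more, 19 were higher and 9 lower at that level. These 557 include the members that reach this mean. DESeq2 called 1 member, Rps24, as higher, and limma voom called the same 1. Over all 9854 tested genes DESeq2 called 35 higher and 607 lower, and limma voom 3 higher and 0 lower.

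The median log2 fold change, Cre minus Control, was 0.02 over the 32 small subunit genes (17 above 0 and 15 below) and 0.13 over the 48 tested large subunit genes (30 above and 18 below). Over all 9854 tested genes it was −0.39, with 5920 below 0. Over the 557 abundant genes it was 0.00, with 279 above 0 and 278 below. The sign of the small subunit median turned with the scaling, at −0.09 with upper-quartile factors and 0.13 with size factors of DESeq2, while the median of all genes was −0.49 and −0.29. The large subunit median was 0.04 and 0.23 with these factors. With 1 library left out at a time, the small subunit median ran from −0.05 (without Control 5) to 0.14 (without Cre 2) and the large subunit median from −0.01 (without Cre 2) to 0.31 (without Control 1), so the sign of both turned.

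**Figure D2:**
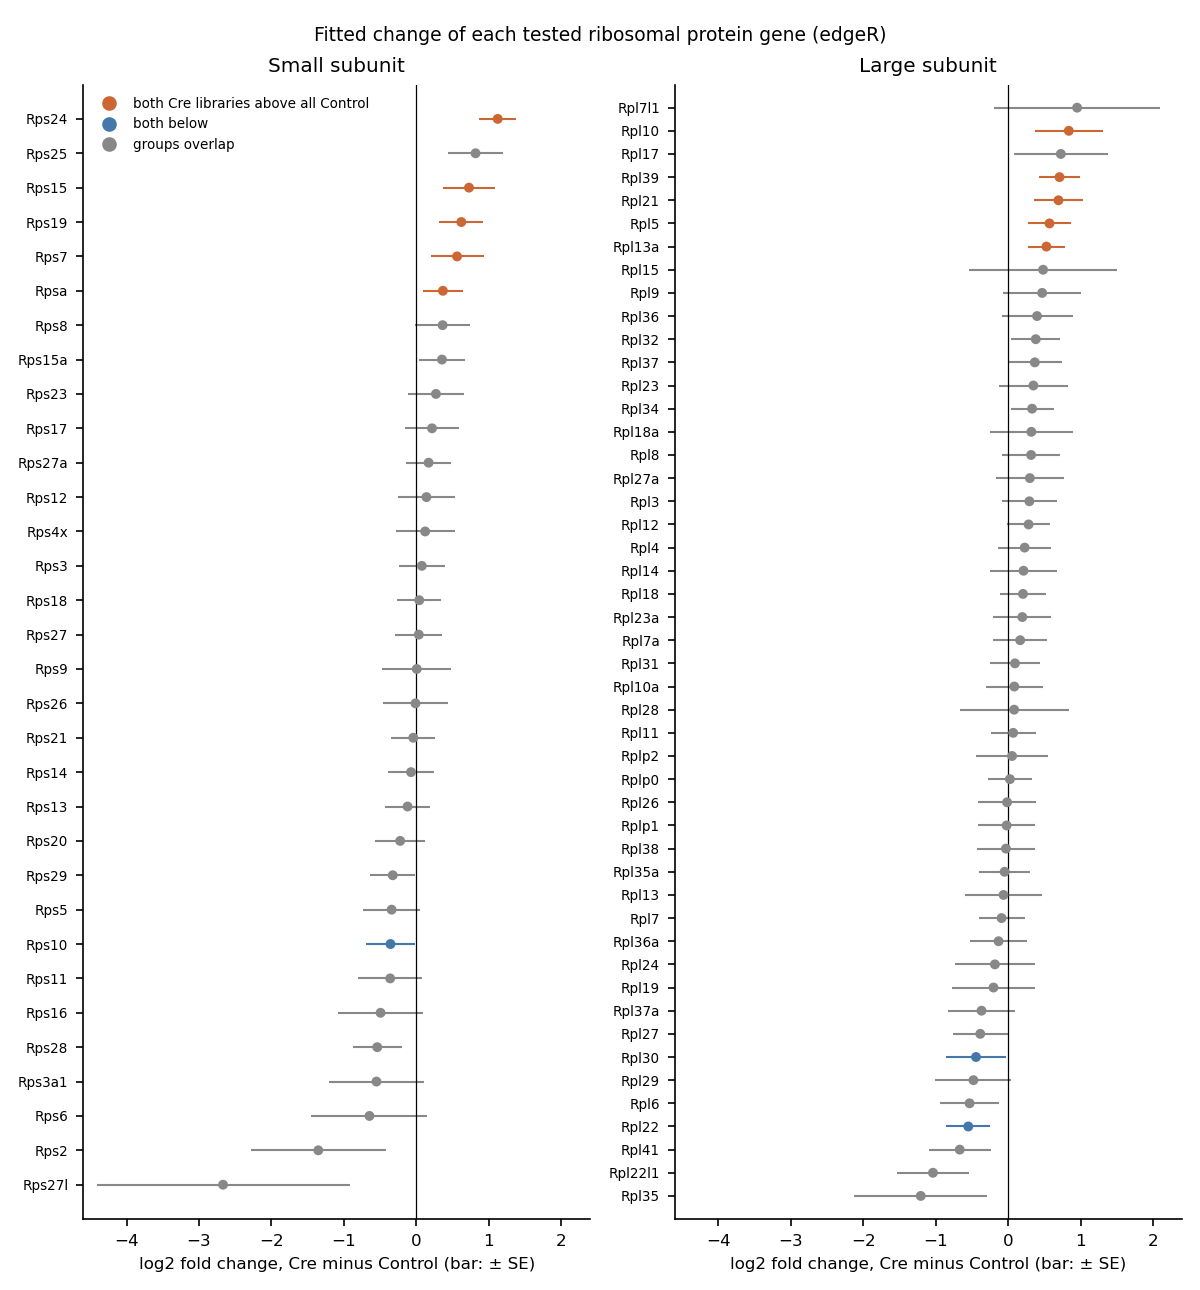
Log2 fold change (Cre minus Control, horizontal axis) of each of the 32 small and 48 large subunit genes tested, as points with bars of 1 SE from edgeR, ordered by size. Rps24, at 1.12, is the highest, orange marks genes with both Cre libraries above all Control libraries (5 in each panel) and blue those with both below.

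Both Cre libraries lay above all 5 Control libraries for 10 members, against 4.05% of all tested genes. These were Rps24, Rps15, Rps19, Rps7 and Rpsa of the small subunit and Rpl39, Rpl21, Rpl13a, Rpl5 and Rpl10 of the large subunit. Both Cre libraries lay below all Control libraries for 3 members, Rps10, Rpl22 and Rpl30, against 10.9% of all tested genes. Among the 557 abundant genes, which include abundant members such as Rps24, 35 lay above and 23 below.

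The spread between libraries was measured as the coefficient of variation, the SD over the mean. Its median over the 5 Control libraries was 25.6% for small and 27.8% for large subunit genes, beside 75.7% for all tested genes and 31.9% for the 557 abundant ones. It was lowest for Rps13 (10.6%) and Rpl22 (11.1%) and highest for Rpl15 (85.8%). Between the 2 Cre libraries, a small subunit gene differed by a median of 1.34-fold and a large subunit gene by 1.24-fold, beside 3.92-fold for all tested genes and 1.43-fold for the abundant ones. No tested member was at 0 in both Cre libraries, as were 1351 (13.7%) of the tested genes and 0 of the abundant ones.

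**Figure D3:**
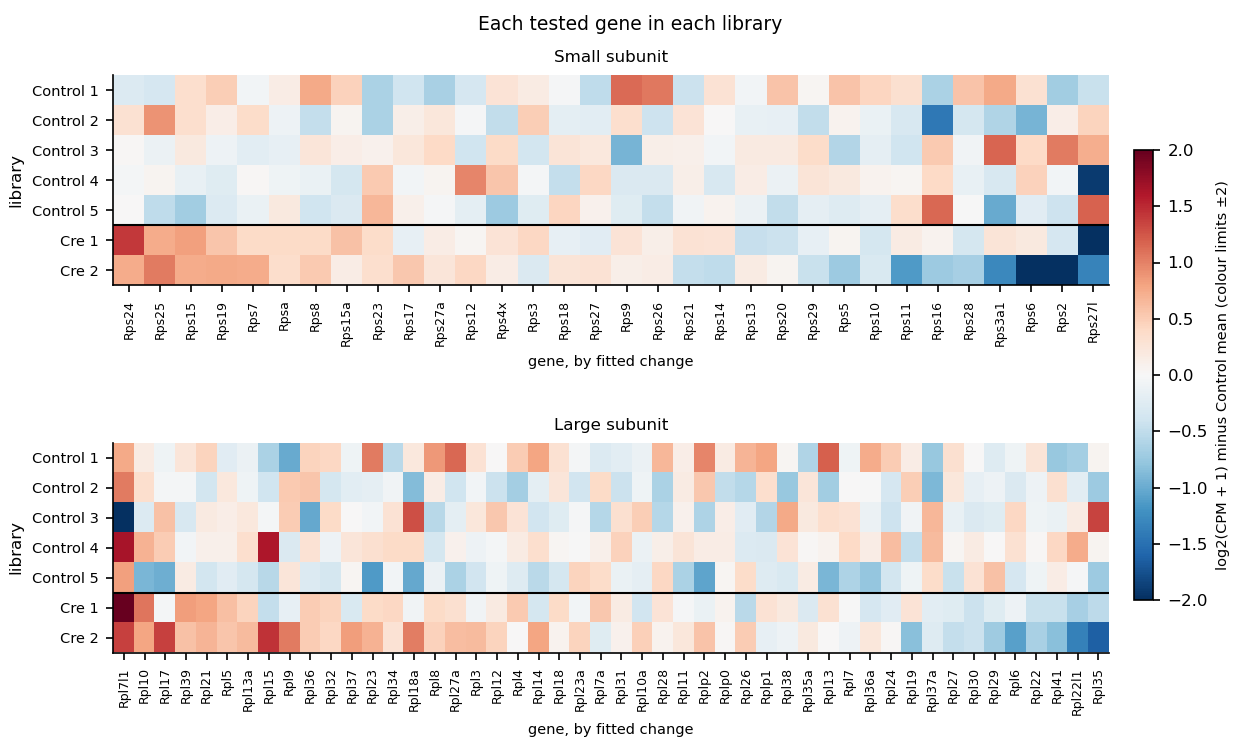
Each tested member (columns, ordered by fitted change) in each library (rows), coloured by log2(CPM + 1) minus the mean of the 5 Control libraries, with colour limits at −2 and 2. Rps24 is red in both Cre rows, and the dark blue Cre cells at the right of the upper panel are Rps6 and Rps2 in Cre 2 and Rps27l in Cre 1.

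Rps24, a small subunit protein whose human gene is mutated in some patients with Diamond-Blackfan anaemia, is encoded at chr14:24487125-24496959 (mm10, plus strand). It had 4842, 7258, 5953, 5726 and 5888 CPM in Control 1 to 5 against 15714 and 9832 CPM in Cre 1 and 2. Both Cre libraries were above every Control library, Cre 1 by more than Cre 2. The log2 fold change was 1.12 ± 0.26 (SE), with an unadjusted p of 0.000881 and an adjusted p of 0.235 in edgeR, 0.00345 in DESeq2 and 0.0296 in limma voom. Over all alternatives the adjusted p ran from 0.000722 with no filter on low counts to 1.0 with the replicate block. Leaving out Cre 1 gave a log2 fold change of 0.75 and leaving out Cre 2 gave 1.46. Its share of all small subunit counts was 7.31, 12.4, 10.5, 10.02 and 11.2% in Control 1 to 5 against 21.7 and 15.9% in Cre 1 and 2. Every Control share was below both Cre shares.

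The counts of Rps24 came from 6 regions, of which 2 held most. The last region, chr14:24495775-24497208, spans the last exon, and a region at chr14:24493461-24493742 begins within exon 4 and runs past its end at 24493493. Counts in the region at exon 4 were 88.9 ± 7.26 per 100 counts of the last region in Control (SD, n = 5) and 96.5 and 93.1 in Cre. Whether a read that spans both was counted in each is not given in the sources used here. With the region of most counts in place of the sum, the log2 fold change of Rps24 was 1.09. A region at exon 3 (chr14:24491818-24492238) had 155, 439.8, 675, 413 and 337 CPM in Control 1 to 5 against 459 and 1155 CPM in Cre 1 and 2. There the groups overlapped, Cre 1 being below Control 3.

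Rps24 mRNAs differ by whether a short exon of 20 bases before the last exon is kept. Kept, it places a stop codon directly after exon 4. Both junctions are shown from GENCODE M21, which gives 390 coding bases to the form that keeps the exon and 399 to the form that skips it, with the 20-base exon (chr14:24495430-24495449, plus strand) in capitals.
Rps24-202: aaaagTGAGTGGAGATTGGATACAGccaaa
Rps24-210: aaaagccaaaggagtagatctgcggtgact
A counted region begins at that exon (chr14:24495430-24495681) and extends past it into the intron. Per 100 counts of the last region it held 1.51, 5.16, 13.2, 1.18 and 6.02 counts in Control 1 to 5 against 0.939 and 0.108 in Cre 1 and 2. On this ratio both Cre libraries were below every Control library, with Cre 1 near Control 4. The last region, by which the counts are divided, was itself higher in both Cre libraries than in every Control library. The counts in the region of the 20-base exon, 140 and 7, overlapped the 57 to 597 of the Control libraries. The region of the 20-base exon was chosen after its values were seen, so the difference is a description with no test. Counts in it do not show which reads crossed a junction.

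**Figure D4:**
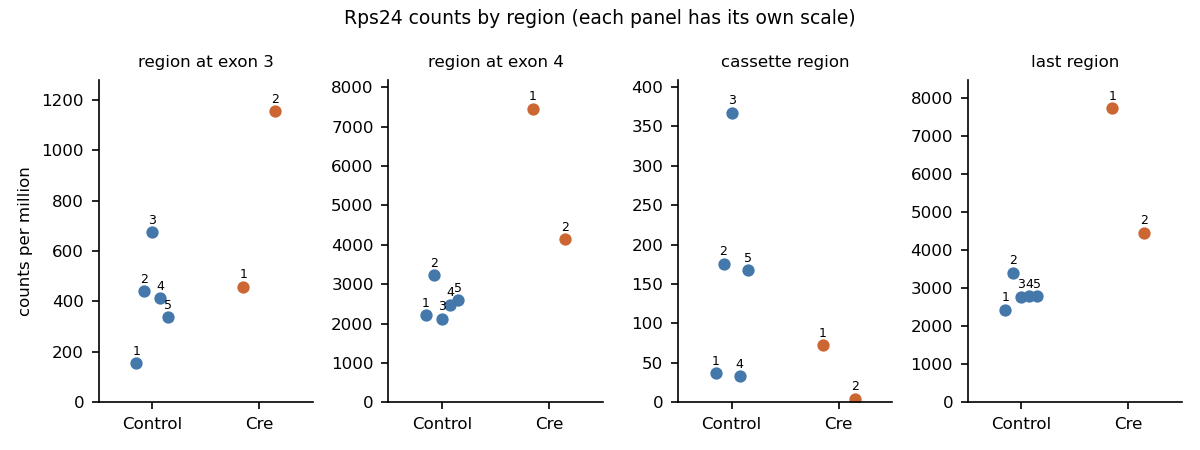
CPM (vertical axes, each with its own scale) of 4 counted regions of Rps24 in the 5 Control and 2 Cre libraries, numbered by replicate. Both Cre points lie above all Control points at exon 4 and in the last region, where Cre 1 is at 7727 CPM, but not at exon 3 or in the region of the 20-base exon.

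Among proteins of the small subunit's head, which swivels as tRNAs move, Rps25, needed by some viral internal ribosome entry sites, had 861, 2025, 1007, 1133 and 767 CPM in Control 1 to 5 against 1828 and 2240.4 CPM in Cre 1 and 2. Its log2 fold change was 0.82 ± 0.37 (adjusted p = 0.429, edgeR), and Control 2 lay above Cre 1. Rps15, near the decoding centre, had 946, 948, 858, 676 and 463 CPM in Control 1 to 5 against 1325 and 1255 CPM in Cre 1 and 2. Rps19, the gene most often mutated in Diamond-Blackfan anaemia, had 3064, 2398, 2025, 1846 and 1804 CPM in Control 1 to 5 against 3192 and 3690.3 CPM in Cre 1 and 2. For Rps15 and Rps19 both Cre libraries were above all Control libraries, with log2 fold changes of 0.73 ± 0.35 and 0.62 ± 0.31 and an adjusted p of 0.429 for each in edgeR. Rps7, of the body of the subunit, had 284, 379, 255, 298 and 268 CPM in Control 1 to 5 against 382 and 492 CPM in Cre 1 and 2. Rpsa, also known as a laminin receptor, had 1899.9, 1601, 1529, 1605 and 1955 CPM in Control 1 to 5 against 2239 and 2174 CPM in Cre 1 and 2. Their Cre libraries were likewise above Control, with Rps7 in Cre 1 just above Control 2.

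Other small subunit genes stood lower in Cre. Rps10, of the head, had 1478, 1009, 972, 1155 and 971 CPM in Control 1 to 5 against 859 and 892 CPM in Cre 1 and 2. Rps28, at the mRNA exit channel, had 3619, 1897, 2326, 2196 and 2417 CPM in Control 1 to 5 against 1905 and 1529 CPM in Cre 1 and 2. The log2 fold changes were −0.36 ± 0.33 (adjusted p = 0.719, edgeR) and −0.54 ± 0.34 (adjusted p = 0.505), and without Control 1 they were −0.18 and −0.31. Both Cre values of Rps10 were below the Control range, while for Rps28 Cre 1 was above Control 2.

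The small subunit genes with most Control counts besides Rps24 were Rps3 and Rps29. Rps3, which lines the mRNA entry channel, had 6398, 8059, 4419, 5567 and 4848 CPM in Control 1 to 5 against 7623 and 4662 CPM in Cre 1 and 2. Rps29, a zinc-binding protein of the head, had 3519, 2432, 4438, 4086 and 3041 CPM in Control 1 to 5 against 3042 and 2523 CPM in Cre 1 and 2. Both groups overlapped for these 2 genes. Rps14, whose human gene is lost in the 5q− syndrome, had 2811, 2326, 2229, 1852 and 2409 CPM in Control 1 to 5 against 2778 and 1615 CPM in Cre 1 and 2. Rps27a, made as a fusion with ubiquitin, had 991, 1819, 2044, 1606 and 1520.5 CPM in Control 1 to 5 against 1716 and 1836 CPM in Cre 1 and 2. Each of these 4 had an adjusted p of at least 0.727 in edgeR.

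Rps6, the protein phosphorylated by S6 kinase, had 225, 84, 232, 258 and 151 counts in Control 1 to 5 against 240 and 30 counts in Cre 1 and 2. Cre 2 was below the other 6 libraries. Rps2, which was picked for its values, had 159, 251, 513, 255 and 187 counts in Control 1 to 5 against 235 and 9 counts in Cre 1 and 2, again with a low Cre 2 and a Cre 1 inside the Control range. Their log2 fold changes were −0.65 ± 0.80 (adjusted p = 0.818, edgeR) and −1.35 ± 0.93 (adjusted p = 0.563), and Rps2 was the 1 member called, as lower, when Cre 1 was left out.

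In the large subunit, Rpl39 sits at the rim of the tunnel through which the new peptide leaves. It had 1673, 1381, 1126, 1359 and 1587 CPM in Control 1 to 5 against 2531 and 2118 CPM in Cre 1 and 2, a log2 fold change of 0.71 ± 0.29 with an unadjusted p of 0.0294 and an adjusted p of 0.422 in edgeR. Nearly all its counts lay in a region that overlaps the small nucleolar RNA Snora69, so the counts of both genes cannot be told apart. Rpl21 had 1305, 742, 1090.4, 1032 and 745 CPM in Control 1 to 5 against 1659 and 1536 CPM in Cre 1 and 2. Rpl13a, also studied as a regulator of translation in inflammation, had 6565, 6678, 8208, 8899 and 5584 CPM in Control 1 to 5 against 9679 and 11037 CPM in Cre 1 and 2. Their log2 fold changes were 0.70 ± 0.33 and 0.53 ± 0.26, with an adjusted p of 0.429 for each in edgeR. All counts of Rpl13a and 19.5% of those of Rpl21 lay in regions shared with small nucleolar RNAs or other genes.

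Rpl5 and Rpl11 form with 5S ribosomal RNA the particle that binds Mdm2 when ribosome assembly fails. Rpl5 had 788, 1073, 1017, 994 and 790.0 CPM in Control 1 to 5 against 1405 and 1352 CPM in Cre 1 and 2. Rpl11 had 3159, 3234, 3053, 3454 and 1851 CPM in Control 1 to 5 against 2833 and 3383 CPM in Cre 1 and 2. Both Cre libraries were above Control for Rpl5 (0.57 ± 0.29, adjusted p = 0.429 in edgeR), and the groups overlapped for Rpl11 (0.07 ± 0.31, adjusted p = 0.961). A region shared with Snord21 held 43.8% of the counts of Rpl5. Rpl10, one of the last proteins added to the large subunit and mutated in some human T cell leukaemias, had 232, 260.0, 172, 335 and 109 CPM in Control 1 to 5 against 436 and 357 CPM in Cre 1 and 2. Its log2 fold change was 0.84 ± 0.47 (adjusted p = 0.445, edgeR), with all counts in regions shared with Snora70 and with 67.7% of the counts of its family in pseudogene copies.

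Rpl22, deleted in some human T cell leukaemias and needed for early T cell development in mice, lies at chr4:152325742-152334071. It had 1882, 1465, 1482, 1600.0 and 1485 CPM in Control 1 to 5 against 1161 and 1001 CPM in Cre 1 and 2. Every Control library was above both Cre libraries (−0.55 ± 0.30, adjusted p = 0.443, log2 fold change and p from edgeR). Rpl30 had 255, 225, 206, 285 and 308 CPM in Control 1 to 5 against 187 and 188 CPM in Cre 1 and 2 (−0.44 ± 0.41, adjusted p = 0.719, edgeR). Its Cre libraries also lay below Control, and nearly all its counts were in a region shared with the gene Gm24523.

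Rpl3, which reaches the peptidyl transferase centre, had 480.5, 377, 459, 367 and 301 CPM in Control 1 to 5 against 375 and 604 CPM in Cre 1 and 2. Rpl38, studied for its effect on Hox mRNA translation, had 947, 548, 1574, 1115 and 749 CPM in Control 1 to 5 against 1063 and 861 CPM in Cre 1 and 2. Rpl10a had 354, 362, 541, 354 and 337 CPM in Control 1 to 5 against 294 and 534 CPM in Cre 1 and 2. The groups overlapped for all 3 genes, with log2 fold changes of 0.29 ± 0.38, −0.03 ± 0.40 and 0.09 ± 0.39.

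The P stalk recruits the elongation factors, with Rplp0 as its base and Rplp1 and Rplp2 as dimers on it. Rplp0 had 1810.4, 1147, 1778, 1789.7 and 1666 CPM in Control 1 to 5 against 1689.7 and 1638 CPM in Cre 1 and 2. Rplp1 had 7599, 5547, 2904, 3581 and 3659.6 CPM in Control 1 to 5 against 5361 and 3889 CPM in Cre 1 and 2. Rplp2 had 8822, 6524, 2928, 4965 and 2143 CPM in Control 1 to 5 against 4081 and 6678 CPM in Cre 1 and 2. Control 1 was the highest library for all 3 genes, and both groups overlapped. Of the counts of the 3 genes, Rplp2 held 48.4, 49.4, 38.5, 48.04 and 28.7% in Control 1 to 5 against 36.7 and 54.7% in Cre 1 and 2. The lowest share was in Control 5 and the highest in Cre 2. Log2 fold changes were 0.03 ± 0.30, −0.02 ± 0.39 and 0.06 ± 0.49.

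Several members have a paralog of their own. Rpl22l1, which can replace Rpl22, had 180.3, 251, 323, 487 and 285 CPM in Control 1 to 5 against 181 and 112 CPM in Cre 1 and 2. Its log2 fold change was −1.04 ± 0.49 (adjusted p = 0.429, edgeR), and Cre 1 was just above Control 1, so the groups overlapped. Of the counts of the pair, Rpl22l1 held 8.75, 14.6, 17.9, 23.3 and 16.1% in Control 1 to 5 against 13.5 and 10.1% in Cre 1 and 2. Both Cre shares lay within the Control range.

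Rps27 had 864, 1057, 1421, 1624 and 1298 CPM in Control 1 to 5 against 1048 and 1502 CPM in Cre 1 and 2. Its paralog Rps27l, a p53 target, had 38, 63, 85, 13 and 117 counts in Control 1 to 5 against 1 and 17 counts in Cre 1 and 2. Rps27l made up 2.54, 3.86, 3.55, 0.462 and 5.25% in Control 1 to 5 against 0.0494 and 0.775% in Cre 1 and 2, with Cre 1 lowest and Control 4 between the Cre libraries (adjusted p of Rps27l = 0.532, edgeR). Rpl7 had 3012, 3232, 3944, 4247 and 2097 CPM in Control 1 to 5 against 3209 and 2995 CPM in Cre 1 and 2. Its relative Rpl7l1 had 87, 94, 1, 166 and 88 counts in Control 1 to 5 against 243 and 115 counts in Cre 1 and 2. Rpl7l1 made up 1.68, 1.92, 0.0156, 2.22 and 2.51% in Control 1 to 5 against 3.78 and 2.58% in Cre 1 and 2. Both Cre shares were above the Control range, where Control 3 held 1 count, but Cre 2 was just above Control 5. In CPM the groups overlapped for Rpl7l1, with 79.3 CPM in Cre 2 below 96.3 CPM in Control 4. The adjusted p of Rpl7l1 was 0.809 in edgeR. A count of 0, as for Rpl3l, Rpl10l and Rpl39l, allows up to 3 counts, between 1.55 and 2.07 CPM in a library, by counting error only.

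Ribosomal protein mRNAs have left many processed copies in the genome, and reads of a member can be counted on them. The table held 325 copies named after a member, for 64 of the 83 members, and 242 of the copies had a count. They summed to 339638 counts beside 1439632 in the members, or 23.99 ± 3.06 per 100 member counts in Control (SD, n = 5) and 21.1 and 24.7 in Cre. For 15 members the copies held more counts than the gene, led by Rpl9 (84.4% of the family's counts), Rpl19 (82.8%) and Rpl36 (81.0%). Of the genes whose Cre libraries lay outside the Control range, the share of the family's counts in copies ran from 0.202% in Rpl13a to 67.7% in Rpl10, and was 5.93% in Rps24, 39.99% in Rps7 and 45.4% in Rps10. With copies added to their member, the log2 fold change of Rps24 was 1.05 and no member was called by edgeR. Regions shared with another gene on the same strand held 16.5% of member counts, many of these genes encoding small nucleolar RNAs, and over 50% of the counts of 10 members.

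Of the 18 members listed as mutated in Diamond-Blackfan anaemia, 10 had a log2 fold change above 0 and 8 below, with a median of 0.05. The 14 genes of the small subunit head had 8 above and 6 below (median 0.06), and the 8 genes at the rim of the exit tunnel 4 and 4 (median 0.04). None of these members passed edgeR, and at an unadjusted p under 0.05 each list held 1 higher gene and 0 lower ones, beside 1.41% and 10.2% of all tested genes. Fau and Rack1 are small subunit proteins whose symbols fall outside the rule. Rack1, a scaffold for signalling on the ribosome, had 1147, 1209, 896, 1128 and 672 CPM in Control 1 to 5 against 1005 and 742 CPM in Cre 1 and 2, and the groups overlapped. The log2 fold changes were 0.04 ± 0.38 for Fau (adjusted p = 0.978, edgeR) and −0.21 ± 0.36 for Rack1 (adjusted p = 0.888).

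Other genes whose mRNAs carry the TOP motif, mainly translation factors, were tested in full (21 of 21). Of these, 14 had a log2 fold change above 0 and 7 below, with a median of 0.12. None passed edgeR, where 0.0% of all tested genes were called higher and 0.0101% lower. None had an unadjusted p under 0.05, beside 1.41% higher and 10.2% lower of all tested genes. Both Cre libraries lay below all Control libraries for 1 of them, Eif4b, and above for 0, beside 10.9% and 4.05% of all tested genes. The log2 fold change of Eif4b was −1.33 ± 0.72 (adjusted p = 0.437, edgeR). Eef1a1, the elongation factor that delivers tRNAs, had a log2 fold change of 0.25 ± 0.33, and Tpt1, a growth-related protein, 0.10 ± 0.28. Among genes that assemble ribosomes, 36 of 37 were tested, 12 above 0 and 24 below, with a median of −0.34 beside −0.39 over all genes. None passed edgeR, and at an unadjusted p under 0.05 there was 1 higher (Tsr1) and 6 lower, beside 1.41% higher and 10.2% lower of all tested genes. Eif6, which keeps the large subunit from joining too early, had 82, 176, 40, 90 and 141 counts in Control 1 to 5 against 0 and 0 counts in Cre 1 and 2. Every Control library had counts of it and neither Cre library did (unadjusted p = 0.000585, adjusted p = 0.218, edgeR). Of the 37 listed genes 6 were at 0 in both Cre libraries, as were 13.7% of all tested genes. Tsr1, of small subunit maturation, had 47.5, 59.9, 43.05, 23.8 and 93.99 CPM in Control 1 to 5 against 327 and 109 CPM in Cre 1 and 2.

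Of 17 regulators of these mRNAs, 14 were tested, 7 above 0 and 7 below, and none passed edgeR, while at an unadjusted p under 0.05 there were 0 higher and 2 lower genes (Larp4 and Mtor), beside the same 1.41% and 10.2%. Both were at 0 in the 2 Cre libraries, as were 13.7% of all tested genes. Larp1, which binds the TOP motif, had 109, 68.03, 19.7, 132 and 149.9 CPM in Control 1 to 5 against 53.9 and 149.7 CPM in Cre 1 and 2, and the groups overlapped. Mtor, the kinase of the pathway, had 42, 16, 12, 37 and 5 counts in Control 1 to 5 against 0 and 0 counts in Cre 1 and 2. Larp4, which binds poly(A), had 8, 33, 17, 53 and 35 counts in Control 1 to 5 against 0 and 0 counts in Cre 1 and 2. The adjusted p was 0.422 for Mtor and 0.398 for Larp4.

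In the authors' deposited table of the same contrast, 0 of the 80 members with an FDR were under 0.05, beside 38 higher and 656 lower of 18008 genes. Rps24 had the FDR 0.0657 in the authors' deposited table.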

How the data were processed

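Total RNA of sorted cells was made into 3′ UTR RNA-seq libraries, per the labels' protocols. The authors deposited raw counts per region for 116000 regions of 55364 genes, per the file headers, and a comparison with p-values, a ratio of group values (fold) and a log2 fold change, per the file headers, beside the GC content of each gene as a percent in the deposited table. Read checks with FastQC 0.11.8, the aligner HISAT2 2.1.0, the package DESeq2 and the build mm10 are listed, per the submitters' processing notes. For the counting tool, strand use, annotation release and reads that map to several places, details were not given in the sources used here.

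Counts were summed per gene. The main test was edgeR 4.0.16 (quasi-likelihood F-test, TMM, filterByExpr with minimum count 10 and minimum total 15, R 4.3.3) over 9854 genes, two-sided, with Benjamini-Hochberg adjustment at 0.05. DESeq2 1.42.0, limma 3.58.1 voom, other scalings and filters and each library left out in turn were alternatives. Sums and ratios over members are given without a p. Named members were the 5 per subunit of smallest p and those whose Cre libraries lay outside the Control range. The 3 per subunit with most Control counts and a set of 27 were named too. From other lists, some genes of small p and some genes chosen by name are shown. These are not always the genes of smallest p in their list. GENCODE M21 and RefSeq (GRCm38.p6), on the build of the files, gave exons and start sites. Members and lists were chosen with earlier results of these data known. Coordinates count from 1.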

Additional observations from a re-analysis of the deposited data

Results flagged for a closer look

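For 3 of the named members, 1 Control library stood apart from the other 4. Rpl11 had 1851 CPM in Control 5, below the 3053 to 3454 CPM of the others. Rpl10a had 541 CPM in Control 3, above the 337 to 362 CPM of the others, and Cre 2 stood near it. Rplp0 had 1147 CPM in Control 2, below the 1666 to 1810 CPM of the others. Over all 80 tested members, 9 had such a Control library (11.25%), spread over all 5 Control libraries. Chance flags about 1 in 20 independent groups, but members share their libraries and are not independent. The share over all tested genes was not computed, so whether 9 is more than usual cannot be said.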

How the results depend on the processing

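Over all tested genes, 0 were called higher and 1 lower in Cre by edgeR. The counts were 15 higher and 28 lower with no filter on low counts, 35 and 607 with DESeq2, 3 and 0 with limma voom, and 0 and 0 with limma voom with library weights. With the replicate block there were 0 higher and 5 lower. Same-numbered libraries correlated at 0.0036 and 0.0023 in their deviations from the group means. The deviations of the 2 Cre libraries mirror each other, so these values cannot show whether equal numbers mark paired samples. Leaving out 1 library at a time gave 0 to 17 higher and 1 to 202 lower, the highest counts being without Cre 1, where the lone Cre library is assumed to vary like the Control libraries. Of small subunit members, 0 were called by edgeR, 1 (Rps24) with no filter, with DESeq2 and with limma voom, and 0 to 1 when a library was left out (Rps2, without Cre 1). No large subunit member was called in any alternative. The difference in the ratio of small to large subunit counts, 0.008, was −0.0088 with copies added, −0.0572 without the member of most counts in each subunit, −0.0777 without Rps24 (copies and Rps24 chosen after seeing the data) and −0.1126 to 0.1286 with 1 library left out. The small subunit difference ran from 3594 CPM without Cre 1 to 14295 CPM without Cre 2, and the large subunit one from 4734 CPM without Control 5 to 12001 CPM without Control 1. The cause was not tested. The log2 fold changes of the 16 members followed across alternatives kept their direction in all that were run. These 16 were picked for a small p or for Cre libraries outside the Control range. That choice favours a kept direction, so it is no separate support for the changes. For Rpl3l, Rpl10l and Rpl39l, at 0 counts, depth allows up to 3 counts in a library.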
